A study of Homo sapiens with 6 samples.

Results

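Long noncoding RNAs of the nucleus and of the cytoplasm were followed in melanoma cells sorted by surface CD20. The genes were taken by symbol from a list of 7, and all 7 matched an identifier among the 58395 genes of the deposited table. The nuclear class held MALAT1, NEAT1, KCNQ1OT1, TUG1 and MEG3, and the cytoplasmic class held NORAD and OIP5-AS1. The selection rule names the genes and uses no measured value, though the list was drawn up with earlier results of these data known. The libraries came from M14, an established human melanoma cell line, grown without attachment as melanospheres that were mechanically dissociated, stained with an antibody to CD20 and flow sorted. There were 3 CD20-positive and 3 CD20-negative libraries, numbered 1 to 3 in each group, and both fractions shared the line, the sphere culture and the staining. Nothing in the labels says whether the replicates are separate cultures. The p-values therefore cover the spread between these libraries, and that spread may be technical. RNA was selected by poly(A) tail before sequencing, per the labels' protocols.

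A long noncoding RNA is a long transcript that is not translated into a protein. Some are kept in the nucleus: MALAT1 collects in nuclear speckles, where splicing factors are stored, NEAT1 is the scaffold around which paraspeckles assemble, and KCNQ1OT1 and MEG3 come from imprinted loci. TUG1 is found in the nucleus and also outside it. NORAD is an abundant cytoplasmic RNA that binds Pumilio proteins such as PUM2, and OIP5-AS1 is the human counterpart of the Cyrano RNA, which triggers the decay of the microRNA miR-7. MALAT1 has been studied in melanoma and in many other tumours. Each library here is a lysate of whole cells, so the comparison is between RNAs known for a compartment and not between isolated compartments.

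The 3′ ends of MALAT1 and of the long form of NEAT1 are shown first because they bear on how a poly(A)-selected library sees these RNAs. Both transcripts are cut by RNase P at a tRNA-like structure and end in an A-rich stretch that folds onto a pair of U-rich stretches as a triple helix, in place of an added tail. The capitals mark the first U-rich stretch, the second U-rich stretch and the A-rich stretch, in that order, 5′ to 3′, as DNA letters from the GENCODE release 29 transcripts. The MALAT1 stretch lies at chr11:65506031-65506116 and the NEAT1 stretch at chr11:65445453-65445540, both on the plus strand of GRCh38.
MALAT1: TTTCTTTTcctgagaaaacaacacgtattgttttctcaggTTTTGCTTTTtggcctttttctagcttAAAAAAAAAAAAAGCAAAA
NEAT1: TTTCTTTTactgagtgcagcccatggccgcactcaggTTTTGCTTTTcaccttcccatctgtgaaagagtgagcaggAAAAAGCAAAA
The A run is 13 bases in MALAT1 and 5 bases in NEAT1. The NEAT1 stretch ends with the annotated transcript, whereas the annotated MALAT1 transcript runs on for 353 bases. Searched on the sense strand, the letters of both U-rich stretches in this order, followed by an A run of at least 5 that ends in GCAAAA, with at most 80 bases between parts, were found in 2 of the 58676 genes with a transcript (0.00341%), which were MALAT1 and NEAT1. The pattern had been written from these sequences, so the share describes how rare the letters are and tests nothing.

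NORAD is known for its many Pumilio elements, and 3 of them are shown with 10 bases on each side. The element searched was TGTANATA on the sense strand of the longest transcript, and capitals mark the match. The windows are chr20:36050183-36050210, chr20:36048478-36048505 and chr20:36046345-36046372, all on the minus strand of GRCh38 and printed in the sense of the RNA.
NORAD first: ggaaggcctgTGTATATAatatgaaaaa
NORAD middle: aataacacttTGTAAATAgcttttaaaa
NORAD last: ttagcctattTGTAAATAcctttgttat
The NORAD transcript of 5339 bases held 15 elements, of which 10 were TGTATATA, 4 were TGTAAATA and 1 was TGTACATA. They began at positions 761 to 4599 of the transcript, and the closest neighbours began 9 bases apart. That is 2.81 elements per kb, against 0.110 per kb over the longest transcripts of all genes. Among the 1901 longest transcripts of 5000 to 5999 bases, 44.5% held at least 1 element, the median was 0, and 3 held as many as 15 or more. Over transcripts of any length, 13.5% held at least 1. NEAT1 held 6 elements, TUG1 held 2, OIP5-AS1 held 1 and MALAT1 held 0. A match describes letters in a transcript and not binding.

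**Figure D1:**
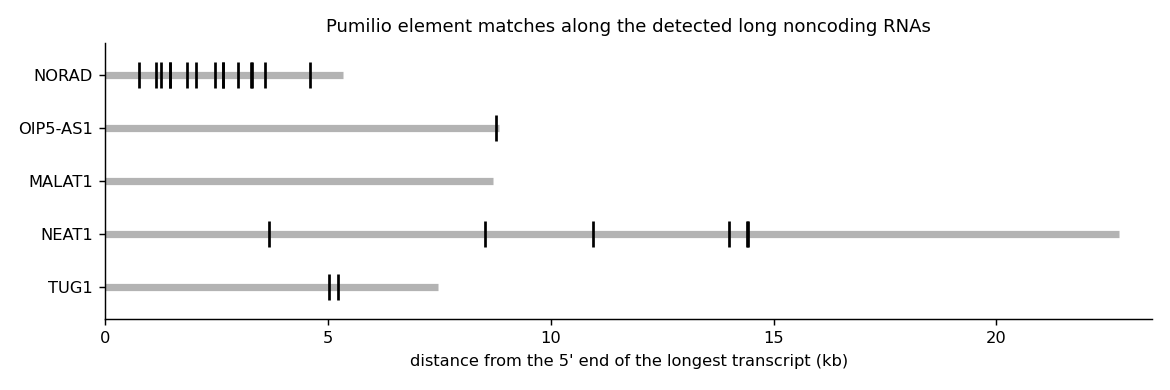
Matches to the Pumilio element TGTANATA (black ticks) along the longest annotated transcript of each detected long noncoding RNA (grey bars, distance from the 5′ end in kb). NORAD carries 15 matches in 5339 bases, the longer NEAT1 transcript carries 6, and MALAT1 carries 0.

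OIP5-AS1 is shown with the microRNA it pairs with. The mature miR-7-5p sequence is from RefSeq (GRCh38.p14), with its seed, bases 2 to 8, in capitals. The site lies at chr15:41300574-41300599 on the plus strand of GRCh38, and the capitals there mark the letters that match the seed, GTCTTCC.
miR-7-5p: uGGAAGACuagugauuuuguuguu
OIP5-AS1 site: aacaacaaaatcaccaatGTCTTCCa
At this site 23 of the 24 bases of miR-7-5p could pair. The longest OIP5-AS1 transcript of 8829 bases held 3 seed matches in all on the sense strand. A seed match was present in 13.1% of longest transcripts of all genes and in 50.8% of the 796 of 8000 to 9999 bases, so a seed match alone is common. Counting OIP5-AS1 itself, 2 genes had a site that aligned to miR-7-5p this well.

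Facts of the libraries that touch every value are these. Levels are in FPKM, that is, fragments relative to exon length and to a library size set by the authors, and they correspond to 15651149 to 17479739 fragments in CD20-positive, against 16666532 to 17915933 in CD20-negative libraries. MS4A1, the gene of CD20 itself, had 1.24, 0.966 and 1.28 FPKM in CD20-positive libraries 1 to 3, against 0.225, 0.263 and 0.403 FPKM in CD20-negative libraries 1 to 3. The mitochondrial genome took 20.6, 11.9 and 17.4% of fragments in CD20-positive libraries, against 4.25, 5.73 and 5.06% in CD20-negative libraries (two-sided exact permutation test, p = 0.1, which is as low as 3 against 3 libraries allow). Ribosomal protein genes took 2.84 to 4.54% of fragments in CD20-positive, against 7.07 to 7.43% in CD20-negative libraries. Their part in the results below was not tested, and the value after scaling to the FPKM total is given for each detected RNA. Of 9 melanocytic markers, 2 averaged at least 1 FPKM. PMEL was the highest and MITF averaged 2.04 FPKM in CD20-positive, against 2.19 FPKM in CD20-negative libraries, while SOX10 was at most 0.0717 FPKM, MLANA at most 0.262 FPKM, and PAX3 was listed at 0. The summed melanocytic markers ranged over 17.4 to 35.7 FPKM in CD20-positive, against 11.1 to 21.4 FPKM in CD20-negative libraries. Epithelial markers (4 of 7 at 1 FPKM or more, led by KRT8) summed to 442 to 504 FPKM in CD20-positive, against 333 to 481 FPKM in CD20-negative libraries, and fibroblast markers (1 of 5, COL1A1) to 33.5 to 41.6 FPKM in CD20-positive, against 23.9 to 26.7 FPKM in CD20-negative libraries. None of 3 endothelial markers averaged 1 FPKM, with sums of 1.51 to 1.86 FPKM in CD20-positive, against 0.978 to 1.35 FPKM in CD20-negative libraries. None of 3 T-cell and myeloid markers did either, with sums of at most 0.183 FPKM and CD3E listed at 0.

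Of the 7 RNAs, 5 averaged at least 1 FPKM and entered the test, and the other two, KCNQ1OT1 and MEG3, did not. In limma on log2(FPKM + 1) over 13155 genes, 0 of these 5 differed at a Benjamini-Hochberg adjusted p under 0.05, where the background was 1 gene in all (MT-TE, a mitochondrial tRNA gene, named after its value was seen), or 0.0076% of genes tested. At an unadjusted p under 0.05 it was 0 of 5 as well, against 9.2% of genes tested, and voom on the recovered fragments also called 0. In a paired fit, which adds the replicate number to the model as a block, 0 of 5 passed again, against 5.83% of all genes tested. At an unadjusted p under 0.05 the paired fit held MALAT1 and NORAD, against a background of 21.3%. As a whole the 7 RNAs took 0.186, 0.513 and 0.465% of fragments in CD20-positive libraries 1 to 3, against 0.320, 0.426 and 0.446% in CD20-negative libraries 1 to 3, which overlapped (two-sided exact permutation test, p = 1). In sorted fractions measured in bulk, fewer cells of a type and less RNA per cell cannot be told apart.

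The order of levels, per kb of exon, was MALAT1, NEAT1, NORAD, TUG1 and OIP5-AS1 in both fractions. Among the 14625 genes that GENCODE classes as long noncoding, MALAT1 ranked 1 in CD20-positive, against 2 in CD20-negative libraries by mean FPKM. NEAT1 ranked 3 in both, and NORAD ranked 8 in CD20-positive, against 6 in CD20-negative libraries. TUG1 ranked 30 in CD20-positive, against 33 in CD20-negative libraries, and OIP5-AS1 ranked 66 in CD20-positive, against 55 in CD20-negative libraries. Neighbours in the order were not all separated by their spread between libraries: MALAT1 and NEAT1 overlapped in level in both fractions, as did TUG1 and OIP5-AS1, and NEAT1 and NORAD overlapped in CD20-positive libraries only. Within a library, TUG1 lay above OIP5-AS1 in all 6, at ratios of 1.32 to 1.77. MALAT1 over NEAT1 was below 1 in CD20-negative library 1 alone (0.961), and NEAT1 over NORAD in CD20-positive library 1 alone (0.947). Replicate 1 was the lowest library of its group for each of the 5 detected RNAs in both fractions.

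MALAT1 (ENSG00000251562, GRCh38 chr11:65497688-65506516, plus strand), the nuclear speckle RNA, is annotated as a lincRNA gene with 8829 bases of exon in 1 block. It had 87.4, 266 and 211 FPKM in CD20-positive libraries 1 to 3, against 72.0, 125 and 164 FPKM in CD20-negative libraries 1 to 3. It was higher in the CD20-positive library of each replicate number, but the groups overlapped, since the CD20-positive library of replicate 1 lay below the CD20-negative libraries of replicates 2 and 3. Of all genes tested, 21.8% were higher in all 3 pairs. MALAT1 averaged 188 ± 91.5 FPKM in CD20-positive, against 120 ± 46.0 FPKM in CD20-negative libraries (SD, n = 3 each), a ratio of 1.57 (two-sided exact permutation test, p = 0.3). The pair ratios, CD20-positive over CD20-negative, were 1.21, 2.14 and 1.29. On the log2(FPKM + 1) scale the difference was 0.58 ± 0.47 (SE; 95% interval -0.54 to 1.70), which did not pass in limma (Benjamini-Hochberg adjusted p = 0.742). Taking up the replicate number narrowed the interval to 0.13 to 1.03, and the adjusted p in limma was then 0.126. Without the 2 libraries of replicate 1 the difference was 0.73 and passed in limma (adjusted p = 0.0182), where 13.8% of all genes did. The paired fit without them called it too (adjusted p in limma = 8.2e-05), where 16.3% of genes were called. With 2 pairs left, the error in that fit came from the spread pooled over genes. That p-value therefore does not measure the spread of MALAT1 itself. Without the CD20-positive library of replicate 1 the difference was 1.05, without that of replicate 2 it was 0.26, and without the CD20-negative library of replicate 1 it was 0.25. MALAT1 also passed in the paired fit on genes of at least 10 FPKM (adjusted p in limma = 0.0330), where 21.2% of genes passed, and in voom with the block (adjusted p = 0.0332), where 11.3% did. The error in the paired fit at 10 FPKM and in voom with the block likewise came mostly from the spread pooled over genes. Scaled to the FPKM total, the difference was 0.06, while the median of all genes was -0.41.

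NEAT1 (ENSG00000245532, chr11:65422774-65445540, plus strand), a lincRNA gene 52.1 kb upstream of MALAT1 on the same strand, was higher in the CD20-positive library of 1 pair out of 3. It had 39.2, 83.6 and 97.3 FPKM in CD20-positive libraries 1 to 3, against 74.9, 94.6 and 77.2 FPKM in CD20-negative libraries 1 to 3. The CD20-positive libraries held both the lowest and the highest of the 6 values. The order of replicates 2 and 3 is not settled. With CD20-negative libraries 2 and 3 exchanged, NEAT1 would be higher in CD20-positive libraries 2 and 3. NEAT1 averaged 73.4 ± 30.4 FPKM in CD20-positive, against 82.2 ± 10.8 FPKM in CD20-negative libraries (SD, n = 3 each; two-sided exact permutation test, p = 0.9). Its log2 difference was -0.25 ± 0.34 (SE; 95% interval -1.06 to 0.55; adjusted p in limma = 0.853). The direction rests on replicate 1: the difference was 0.14 when the CD20-positive library of replicate 1 was left out, and 0.08 when both replicate 1 libraries were left out. Scaled to the FPKM total it was -0.76, while the median of all genes was -0.41. The deposited value is for the whole gene, so the short and the long NEAT1 forms were not separated.

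TUG1 (ENSG00000253352, chr22:30969245-30979395, plus strand), annotated as a bidirectional-promoter noncoding gene with 10151 bases of exon, had 13.8, 23.1 and 24.2 FPKM in CD20-positive libraries 1 to 3, against 16.6, 19.7 and 22.6 FPKM in CD20-negative libraries 1 to 3. The CD20-positive values enclose the CD20-negative ones. The means were 20.4 ± 5.71 FPKM in CD20-positive, against 19.7 ± 3.00 FPKM in CD20-negative libraries (SD, n = 3 each; two-sided exact permutation test, p = 0.8), and the log2 difference was 0.02 ± 0.24 (SE; 95% interval -0.54 to 0.58; adjusted p in limma = 0.987). Its sign changed with the library left out. The difference was -0.12 without the CD20-positive library of replicate 3, -0.08 without that of replicate 2 and -0.09 without the CD20-negative library of replicate 1. It was 0.27 without the CD20-positive library of replicate 1, 0.03 without the CD20-negative library of replicate 2 and 0.12 without that of replicate 3. Scaled to the FPKM total it was -0.47, close to the median of all genes there (-0.41). TUG1 is therefore given with no direction. Opposite-strand genes that share exon bases with TUG1 or MALAT1 were listed at 0.

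NORAD (ENSG00000260032, chr20:36045622-36050960, minus strand), the Pumilio-binding RNA, a lincRNA gene with 1 exon block, was the lone member whose groups did not overlap in FPKM. It had 41.4, 61.5 and 54.2 FPKM in CD20-positive libraries 1 to 3, against 62.0, 66.0 and 72.1 FPKM in CD20-negative libraries 1 to 3. Groups separated in that direction for 6.14% of genes tested, and 20.3% were lower in all 3 pairs. The gap was narrow, 61.5 FPKM in CD20-positive library 2 beside 62.0 FPKM in CD20-negative library 1. NORAD averaged 52.4 ± 10.2 FPKM in CD20-positive, against 66.7 ± 5.10 FPKM in CD20-negative libraries (SD, n = 3 each), a ratio of 0.786 (two-sided exact permutation test, p = 0.1, the smallest possible here). The log2 difference was -0.36 ± 0.19 (SE; 95% interval -0.80 to 0.08), which did not pass in limma (adjusted p = 0.621), nor in the paired fit (95% interval -0.71 to -0.0069; adjusted p = 0.225). It kept its sign with each library left out, from -0.20 without the CD20-positive library of replicate 1 to -0.48 without that of replicate 2. Scaled to the FPKM total the difference was -0.87, against a median of -0.41 over all genes, and it passed there in the paired fit (adjusted p in limma = 0.00484), where 29.8% of genes did. As a share of fragments NORAD took 0.0270 ± 0.00734% in CD20-positive, against 0.0385 ± 0.00362% in CD20-negative libraries (SD, n = 3 each; two-sided exact permutation test, p = 0.1).

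OIP5-AS1 (ENSG00000247556, chr15:41283990-41309737, plus strand), annotated as a processed transcript with 12673 bases of exon in 10 blocks, carries the miR-7 site shown above. It had 9.86, 15.2 and 13.7 FPKM in CD20-positive libraries 1 to 3, against 12.2, 13.8 and 17.2 FPKM in CD20-negative libraries 1 to 3. The groups overlapped, and the CD20-positive library was the lower in 2 of 3 pairs. With CD20-negative libraries 2 and 3 exchanged, whose order is not settled, OIP5-AS1 would be lower in all 3 pairs. It averaged 12.9 ± 2.76 FPKM in CD20-positive, against 14.4 ± 2.55 FPKM in CD20-negative libraries (SD, n = 3 each; two-sided exact permutation test, p = 0.5). The log2 difference was -0.15 ± 0.20 (SE; 95% interval -0.63 to 0.32; adjusted p in limma = 0.850). Without the CD20-positive library of replicate 1 it was 0.02. Scaled to the FPKM total it was -0.63, where the median of all genes was -0.41, and it passed in the paired fit on that scale (adjusted p in limma = 0.0332), which called 29.8% of all genes, 3833 of 3923 of them lower. Of its exon bases, 470 (3.71%) are shared with OIP5 on the opposite strand, which averaged 9.99 FPKM in CD20-positive, against 8.25 FPKM in CD20-negative libraries. Whether the counting used strand is not given in the sources used here, so reads of that stretch cannot be assigned. On the same strand, 327 exon bases (2.58%) are shared with AC087721.2, a protein-coding gene for which no level was available.

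**Figure D2:**
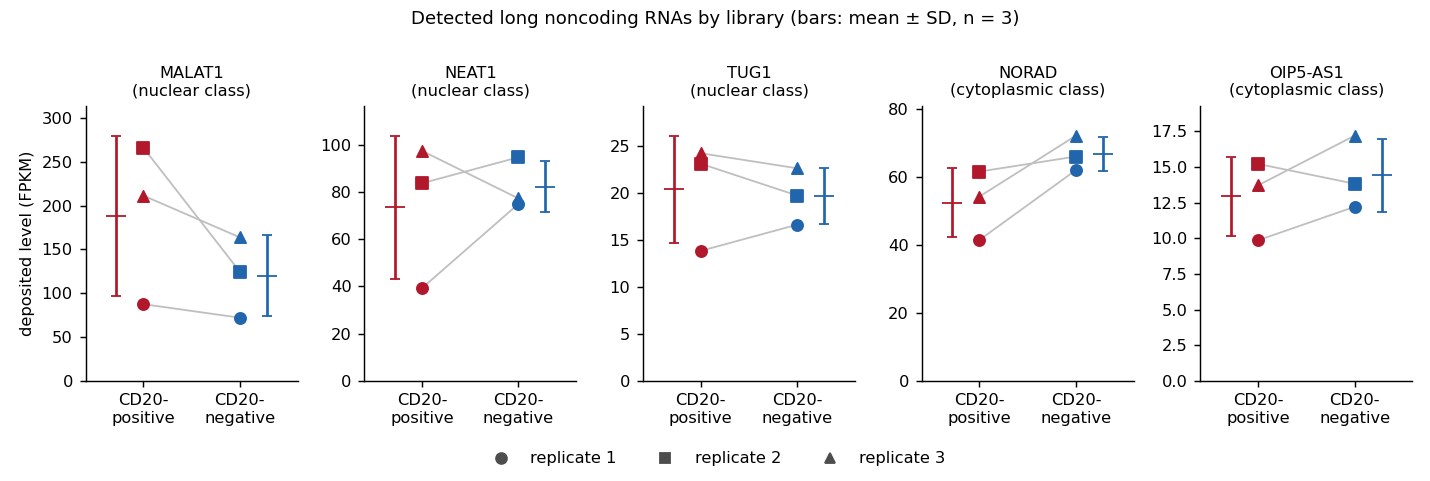
Deposited level (FPKM, linear axes from 0) of the 5 detected long noncoding RNAs in each library, CD20-positive in red and CD20-negative in blue, with grey lines joining libraries of the same replicate number and bars giving the mean ± SD (n = 3). MALAT1 was higher in the CD20-positive library of all 3 pairs with overlapping groups, and NORAD was lower in all 3 pairs without overlap, with 41.4 to 61.5 FPKM in CD20-positive, against 62.0 to 72.1 FPKM in CD20-negative libraries.

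KCNQ1OT1 and MEG3, both transcribed from imprinted clusters, were at or near 0. KCNQ1OT1 (ENSG00000269821, chr11:2608328-2699994, minus strand), an antisense RNA within KCNQ1, was listed at 0.00144, 0.00204 and 0.00069 FPKM in CD20-positive libraries 1 to 3, against 0.00058, 0 and 0.00331 FPKM in CD20-negative libraries 1 to 3. These values correspond to 2, 3 and 1 fragments in CD20-positive and to 1, 0 and 6 fragments in CD20-negative libraries, 13 in all over 91667 bases of exon. No comparison can be drawn from so few fragments. Its host gene KCNQ1, a potassium channel gene, averaged 1.45 ± 0.260 FPKM in CD20-positive, against 1.32 ± 0.632 FPKM in CD20-negative libraries, and CDKN1C, the cell-cycle inhibitor of the same imprinted cluster, averaged 17.4 ± 7.36 FPKM in CD20-positive, against 15.3 ± 2.36 FPKM in CD20-negative libraries (SD, n = 3 each). MEG3 (ENSG00000214548, chr14:100779410-100861031, plus strand) was listed at 0 in all 6 libraries. Some genes that every cell uses, among them the ribosomal protein gene RPS9 and the RNA helicase gene DDX39B, are also listed at 0 in all 6 libraries, so a listed 0 is not read as absence of the RNA. Of the 5 imprinted neighbours of MEG3, none averaged 1 FPKM. The growth-regulator gene DLK1 averaged 0.835 ± 0.172 FPKM in CD20-positive, against 0.585 ± 0.124 FPKM in CD20-negative libraries (SD, n = 3 each), and the deiodinase gene DIO3 averaged 0.688 ± 0.134 FPKM in CD20-positive, against 0.654 ± 0.316 FPKM in CD20-negative libraries (SD, n = 3 each).

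**Figure D3:**
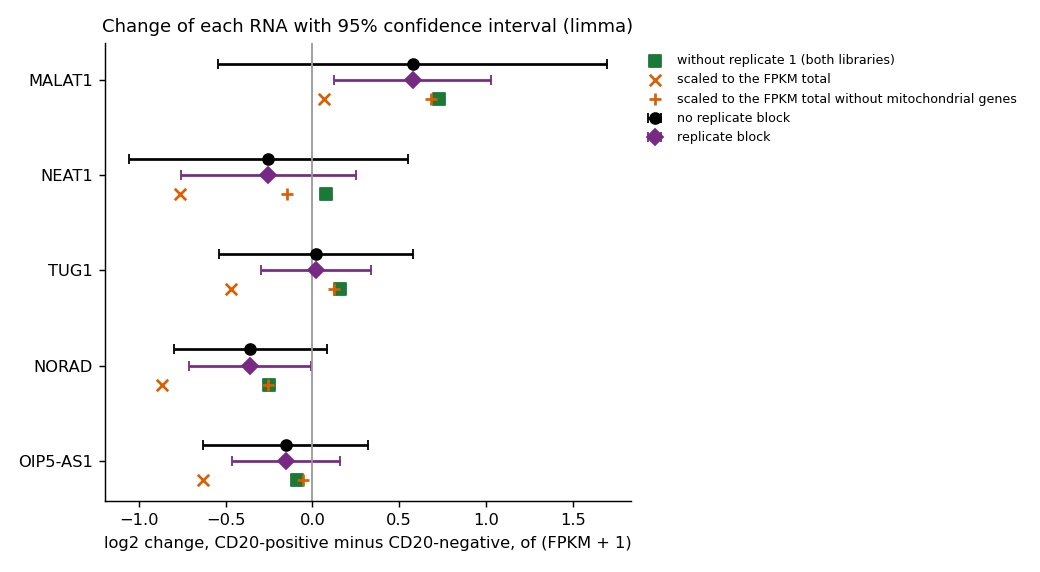
Difference of each detected RNA (x axis, CD20-positive minus CD20-negative, log2 of FPKM + 1) with its 95% limma interval without the replicate block (black) and with it (purple), and the value under 3 alternatives: both replicate 1 libraries left out (green squares), scaling to the FPKM total (crosses) and scaling to that total without mitochondrial genes (plus signs). Scaling to the total moves every RNA down, MALAT1 to 0.06 and NORAD to -0.87, and NEAT1 changes sign to 0.08 without replicate 1.

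Ratios of RNAs within a library do not depend on how that library was scaled, so the nuclear and the cytoplasmic class were compared that way, over 10 ratios, as a description with no test. MALAT1 over NORAD was 2.11, 4.32 and 3.90 in CD20-positive libraries 1 to 3, against 1.16, 1.89 and 2.27 in CD20-negative libraries 1 to 3. It was 1.72 to 2.29 times higher in the CD20-positive library of each pair, although 2.11 in CD20-positive library 1 lay below 2.27 in CD20-negative library 3. MALAT1 over OIP5-AS1 was 8.86, 17.5 and 15.4 in CD20-positive libraries, against 5.89, 9.01 and 9.52 in CD20-negative libraries, and was 1.504 to 1.94 times higher within pairs. TUG1 over NORAD was 0.334, 0.376 and 0.447 in CD20-positive libraries, against 0.268, 0.299 and 0.314 in CD20-negative libraries, with no overlap and pair ratios of 1.24 to 1.42. NORAD, the denominator, separated the fractions by itself, and TUG1 did not. TUG1 over OIP5-AS1 was also higher in all 3 pairs, at 1.40, 1.52 and 1.77 in CD20-positive against 1.36, 1.43 and 1.32 in CD20-negative libraries, with overlap.

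NEAT1, the paraspeckle scaffold, gave no common direction in these ratios. Over NORAD it was 0.947, 1.36 and 1.80 in CD20-positive libraries, against 1.21, 1.43 and 1.07 in CD20-negative libraries, and was higher in 1 of 3 pairs. Over OIP5-AS1 it was 3.98, 5.49 and 7.09 in CD20-positive libraries, against 6.13, 6.84 and 4.49 in CD20-negative libraries, again higher in 1 of 3 pairs, that of replicate 3. These counts rest on the numbering of replicates 2 and 3, which is not settled. With CD20-negative libraries 2 and 3 exchanged, both ratios would be higher in CD20-positive libraries 2 and 3. Within the nuclear class, MALAT1 over NEAT1 was 2.23, 3.18 and 2.17 in CD20-positive libraries, against 0.961, 1.32 and 2.12 in CD20-negative libraries. These groups did not overlap, though in replicate 3 the pair ratio was 1.02, against 2.32 and 2.42 in the other two pairs. Within the cytoplasmic class, NORAD over OIP5-AS1 was 4.20, 4.04 and 3.95 in CD20-positive libraries, against 5.08, 4.77 and 4.19 in CD20-negative libraries, lower in all 3 pairs and overlapping, at 4.20 in CD20-positive library 1 beside 4.19 in CD20-negative library 3. MALAT1 over TUG1 was higher in 3 of 3 pairs (1.21 to 1.82 times) and NEAT1 over TUG1 in 1 of 3.

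Put on one scale, the mean log2(FPKM + 1) of MALAT1, NEAT1 and TUG1 minus that of NORAD and OIP5-AS1 was 0.81, 1.36 and 1.503 in CD20-positive libraries 1 to 3, against 0.67, 1.00 and 0.88 in CD20-negative libraries 1 to 3. The CD20-positive library was higher in all 3 pairs, by 0.13, 0.36 and 0.62, and the groups overlapped. The means differed by 0.37. With MALAT1 left out, the difference was 0.14 and the pairs gave -0.16, 0.0059 and 0.57. With NEAT1 left out it was 0.56. This score was formed over members chosen with earlier results known and has no test.

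**Figure D4:**
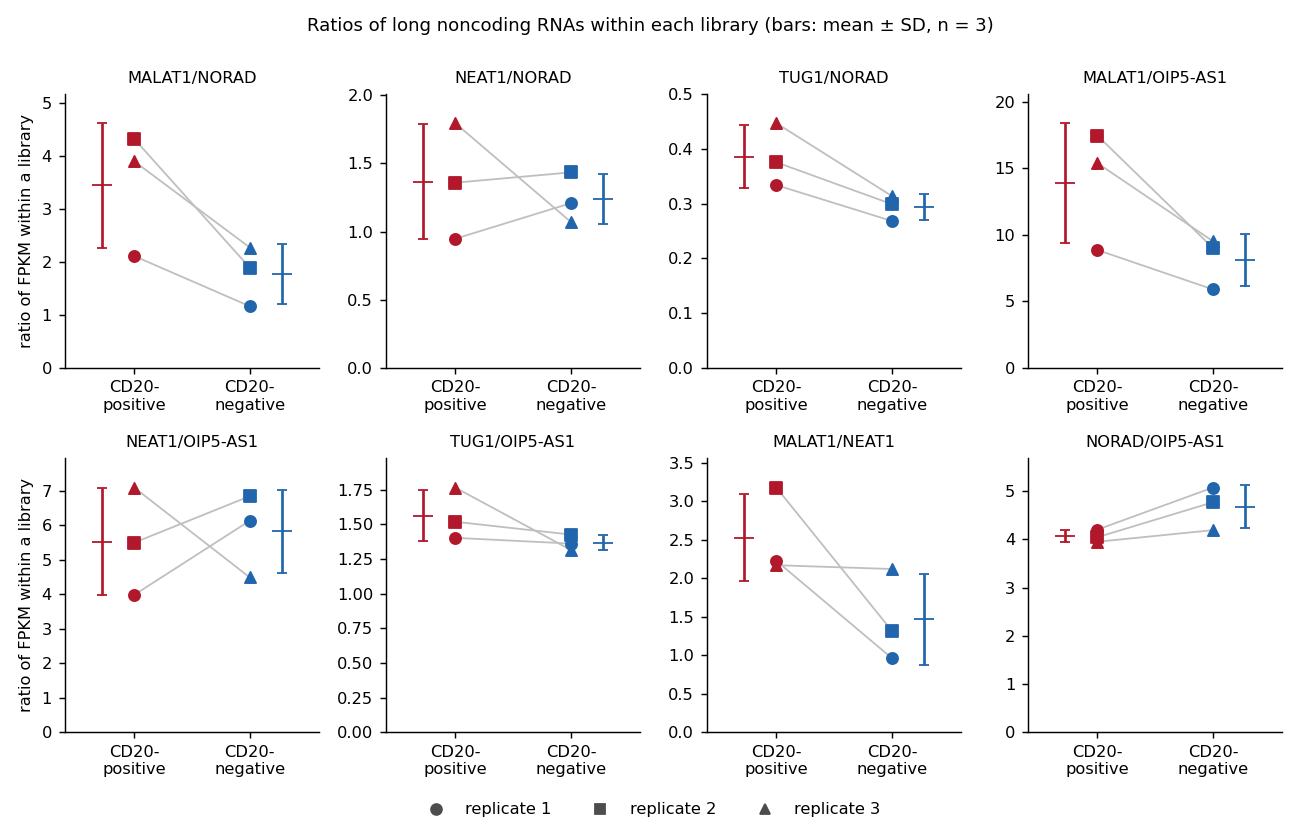
Ratio of FPKM of RNA pairs within each library (linear axes from 0), CD20-positive in red and CD20-negative in blue, with grey lines joining the same replicate number and bars giving the mean ± SD (n = 3). MALAT1 over NORAD and TUG1 over NORAD were higher in the CD20-positive library of all 3 pairs, whereas NEAT1 over NORAD, with the pairs as numbered, was higher in replicate 3 alone.

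The proteins and RNAs that work with these transcripts were read from lists, with counts from the fits over all 13155 genes. Without the block 0 genes of any list passed in limma. The 13 lists of partners, neighbours and other RNAs had 109 tested genes, of which 11 (10.1%) had an unadjusted p under 0.05 without the block, against 9.2% of all genes, and voom without the block called 0. Of the 109, 8 passed in the paired fit, 3 higher and 5 lower, against 3.19% higher and 2.64% lower over all genes tested. Without both libraries of replicate 1, 17 of the 109 passed in the paired fit, where 16.3% of all genes did. Without replicate 3, 2 passed, beside 331 of all 13155 genes. Without replicate 2, 0 passed, beside 1 of all 13155 genes. The median difference of all genes tested was 0.00 on the log2 scale, and it is what the list medians below are set against. Scaled to the FPKM total, that median was -0.41 and those of the 12 partner and neighbour lists with a tested gene were below 0, so on that scale the lists with a positive median changed sign and those with a negative median did not. There the genome neighbours stood at -0.23 and other nuclear noncoding RNAs at -0.29, while other cytoplasmic noncoding RNAs stood at -0.72.

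Protein partners of the nuclear RNAs gave 0 calls among those of paraspeckles and speckles on the deposited scale, at the filter of 1 FPKM and with all 6 libraries. Of 12 paraspeckle proteins 0 passed, with a median difference of 0.01. NONO, a core paraspeckle protein, averaged 206 ± 5.24 FPKM in CD20-positive, against 185 ± 17.2 FPKM in CD20-negative libraries, and SFPQ, its partner, 52.4 ± 2.74 FPKM in CD20-positive, against 44.8 ± 1.54 FPKM in CD20-negative libraries (SD, n = 3 each). NUDT21, a polyadenylation factor, averaged 32.7 ± 3.90 FPKM in CD20-positive, against 41.9 ± 4.09 FPKM in CD20-negative libraries (SD, n = 3 each). Of 14 nuclear speckle and splicing proteins 0 passed, with a median of 0.02. Without both libraries of replicate 1, 4 of the 14 passed as higher, with and without the block, and the median was 0.17. Of all 13155 genes, 1018 passed as higher there with the block and 833 without it. In either direction 16.3% of all genes passed with the block and 13.8% without it. In the paired fit on genes of at least 10 FPKM 1 of the 14 passed as higher, where 447 of all 4503 genes did. The splicing factors SRSF6 (87.9 ± 9.23 FPKM in CD20-positive, against 66.0 ± 0.211 FPKM in CD20-negative libraries) and SRSF2 (117 ± 22.4 FPKM in CD20-positive, against 86.8 ± 3.39 FPKM in CD20-negative libraries) did not overlap between groups, at 0.40 and 0.41 on the log2 scale (SD, n = 3 each). Groups separated in that direction for 8.87% of genes tested, and these genes had the smallest p of their list. SRRM1, a speckle matrix protein, overlapped and differed by 0.41.

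The median of 15 genes for 3′ end processing and decay of MALAT1 and NEAT1 was -0.13. In the paired fit 1 of them fell, where 2.64% of all genes did. That gene was RPP40, a subunit of RNase P, which had 14.4, 6.90 and 6.42 FPKM in CD20-positive libraries 1 to 3, against 19.3, 12.01 and 10.2 FPKM in CD20-negative libraries 1 to 3. It fell in the paired fit by 0.57 on the log2 scale (adjusted p in limma = 0.0332), with overlapping groups, and it is named because it was the only call of this list. RPP14 and POP7, other RNase P subunits, differed by -0.32 and -0.46, and TRNT1, which adds CCA to tRNA ends, by -0.33, none of them past the threshold. Another subunit gene, RPP21, was listed at 0 in all 6 libraries. Of 11 export and retention genes 0 passed, with a median of 0.09. SRRT, which links the cap-binding complex to RNA fate, differed by 0.40, NXF1, the main mRNA export receptor, by 0.28, and NCBP2, a cap-binding subunit, by -0.23.

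Chromatin partners of nuclear noncoding RNAs gave 1 call among 10 tested, as higher in the paired fit, where 3.19% of all genes rose. EZH2, the catalytic subunit of the Polycomb complex PRC2, had 12.5, 27.0 and 33.2 FPKM in CD20-positive libraries 1 to 3, against 10.1, 15.4 and 17.1 FPKM in CD20-negative libraries 1 to 3. It was higher in each pair, by 1.23, 1.75 and 1.94 times, with overlapping groups, and it rose in the paired fit by 0.65 ± 0.15 on the log2 scale (SE; adjusted p in limma = 0.0317) but not without the block (adjusted p = 0.637). The PRC2 genes JARID2 and EED differed by 0.18 and 0.12 and did not pass.

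Partners of the cytoplasmic RNAs gave 0 calls on the deposited scale. Of 10 NORAD partners the median difference was -0.03. PUM2, a Pumilio gene, averaged 14.3 ± 3.02 FPKM in CD20-positive, against 15.0 ± 1.87 FPKM in CD20-negative libraries (SD, n = 3 each). PABPN1, the nuclear poly(A)-binding protein, differed by 0.31, PRPF19, a splicing factor, by -0.22, and RBMX, an RNA-binding protein that NORAD can bind, by 0.11. Of 8 genes of the OIP5-AS1 and miR-7 path the median was -0.04. ZSWIM8, the ubiquitin-ligase adaptor through which Cyrano-type RNAs direct the decay of a microRNA, averaged 8.31 ± 1.24 FPKM in CD20-positive, against 6.28 ± 0.581 FPKM in CD20-negative libraries (SD, n = 3 each). It did not overlap between groups and did not pass (0.35 on the log2 scale; adjusted p in limma = 0.543, and 0.145 with the block). Among all genes tested, 8.87% were higher in CD20-positive libraries without overlap. The Argonaute genes AGO1 and AGO4 differed by -0.15 and 0.14, and ELAVL1, an RNA-stabilising protein that OIP5-AS1 can bind, by -0.09. Scaled to the FPKM total, 2 of the 10 NORAD partners were called lower without the block, and 3 with it. Of the 8 genes of the OIP5-AS1 and miR-7 path, 0 and 2 were. With the block, 29.8% of all genes were called on that scale. miR-7 itself is not measured by poly(A) libraries of this kind.

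Among genes next to the 7 loci, 2 of 9 tested rose in the paired fit, where 3.19% of all genes did, and the median was 0.23. LTBP3, which stores latent TGF-beta and lies in the same stretch of chromosome 11 as NEAT1 and MALAT1, had 26.1, 19.96 and 25.4 FPKM in CD20-positive libraries 1 to 3, against 11.8, 14.9 and 12.6 FPKM in CD20-negative libraries 1 to 3. The groups did not overlap, as was so for 8.87% of genes tested in that direction, and the difference was 0.81 on the log2 scale (adjusted p in limma = 0.232, and 0.0141 with the block). NUSAP1, a spindle protein next to OIP5-AS1, had 28.4, 57.7 and 50.5 FPKM in CD20-positive libraries 1 to 3, against 23.2, 25.1 and 27.9 FPKM in CD20-negative libraries 1 to 3. It did not overlap either (0.76 on the log2 scale; adjusted p in limma = 0.485, and 0.0294 with the block). FRMD8, also near NEAT1, averaged 29.3 ± 1.30 FPKM in CD20-positive, against 22.2 ± 1.18 FPKM in CD20-negative libraries (SD, n = 3 each) and did not pass. Of 6 tested neighbours of KCNQ1OT1 0 passed, with a median of 0.14. The tetraspanin gene CD81 differed by 0.25, the histone chaperone gene NAP1L4 by 0.36 and the lipid-transfer gene OSBPL5 by 0.16.

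Other noncoding RNAs known for a compartment were set beside the 7. Of 4 tested nuclear ones 0 passed, with a median difference of 0.11. HOTAIR averaged 8.32 ± 3.00 FPKM in CD20-positive, against 7.04 ± 0.694 FPKM in CD20-negative libraries, FENDRR 4.55 ± 0.544 FPKM in CD20-positive, against 4.93 ± 0.108 FPKM in CD20-negative libraries, and PVT1 2.98 ± 0.767 FPKM in CD20-positive, against 2.49 ± 0.195 FPKM in CD20-negative libraries (SD, n = 3 each). Of 6 tested cytoplasmic ones 2 fell in the paired fit, where 2.64% of all genes did, and the median was -0.24. EPB41L4A-AS1, a snoRNA host gene, had 6.27, 5.93 and 7.91 FPKM in CD20-positive libraries 1 to 3, against 9.94, 10.5 and 12.8 FPKM in CD20-negative libraries 1 to 3. DANCR, also a snoRNA host, had 43.1, 27.1 and 30.8 FPKM in CD20-positive libraries 1 to 3, against 56.3, 51.4 and 45.4 FPKM in CD20-negative libraries 1 to 3. Neither overlapped between groups, and they differed by -0.65 (adjusted p in limma = 0.299, and 0.0156 with the block) and by -0.61 (adjusted p = 0.460, and 0.0431 with the block). GAS5, a snoRNA host whose spliced RNA is degraded when it is translated, averaged 58.4 ± 6.77 FPKM in CD20-positive, against 70.1 ± 3.55 FPKM in CD20-negative libraries (SD, n = 3 each), with no overlap, and did not pass. Of all genes tested, 6.14% were lower in CD20-positive libraries without overlap. Over all 1310 tested genes that GENCODE classes as long noncoding, the paired fit called 42 higher and 34 lower (5.80%), close to the 5.83% over all genes.

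Since MALAT1 and the long NEAT1 form lack an added tail, a list of RNAs usually made without one was read in the same libraries. Of 15 listed, 13 were in the table, and together they took 0.00322 ± 0.00142% of fragments in CD20-positive, against 0.00658 ± 0.00334% in CD20-negative libraries (SD, n = 3 each; two-sided exact permutation test, p = 0.2). Of 4 tested, 2 fell in the paired fit, where 2.64% of all genes did, and the median was -0.77. The histone gene H2BC5 had 14.4, 5.16 and 6.75 FPKM in CD20-positive libraries 1 to 3, against 22.4, 13.9 and 12.8 FPKM in CD20-negative libraries 1 to 3 (log2 difference -0.90; adjusted p in limma = 0.00933 with the block). The histone gene H2AC6 differed by -0.64 (adjusted p = 0.0187 with the block). RN7SL2, the RNA of the signal recognition particle, was uneven within both groups, at 21.8 ± 21.7 FPKM in CD20-positive, against 66.1 ± 46.8 FPKM in CD20-negative libraries (SD, n = 3 each), and did not pass. Whether each listed RNA, the histone RNAs included, lacked a tail in these cells was not measured. The list therefore cannot stand for RNA without a tail. Whether tail selection plays a part in the MALAT1 and NEAT1 values was not tested.

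**Figure D5:**
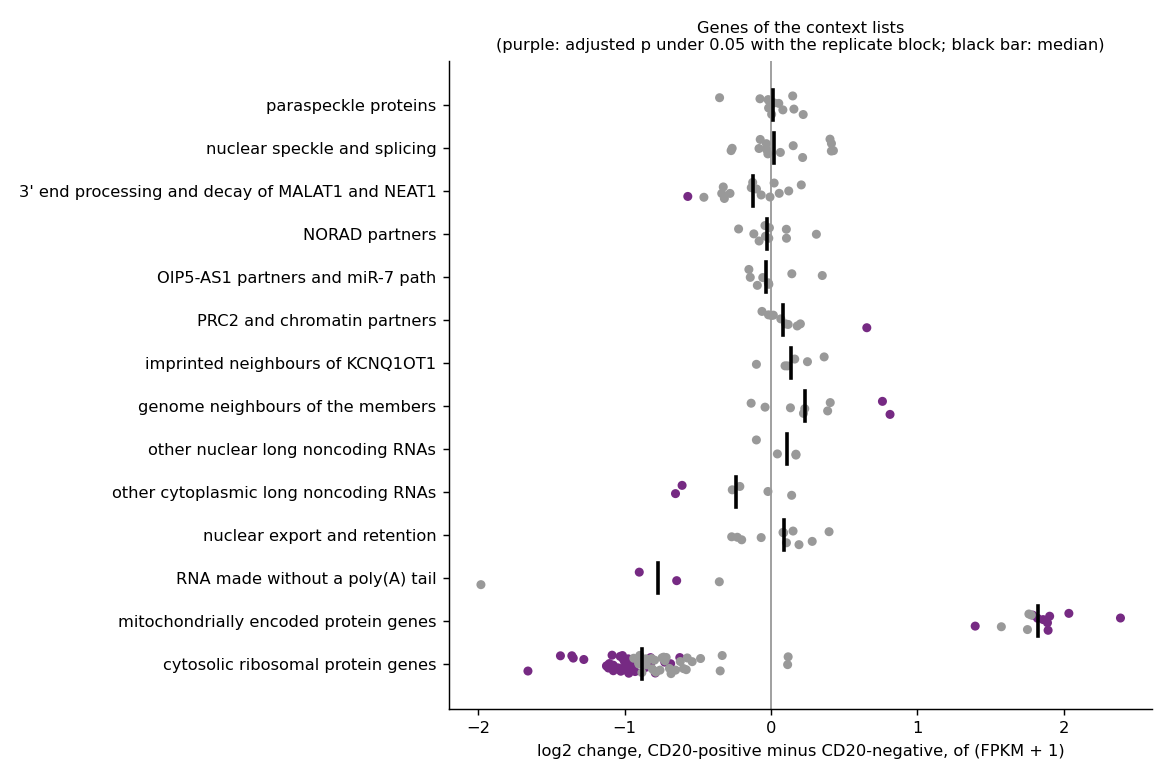
Difference of each tested gene of the context lists (x axis, CD20-positive minus CD20-negative, log2 of FPKM + 1; 1 dot a gene, purple where the adjusted p is under 0.05 in limma with the replicate block, black bars for the list medians). The lists of partners sit around 0 with medians from -0.13 to 0.09, while mitochondrially encoded genes (median 1.82, 9 of 13 higher) and ribosomal protein genes (median -0.88, 41 of 73 lower) stand apart from them. Of all genes tested, 3.19% were called higher and 2.64% lower with the block.

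Patterns across the 6 libraries are given as a description, with Pearson's r of log2(FPKM + 1), and they share the library scaling and the low values of replicate 1. Among the 5 detected RNAs, r was highest between MALAT1 and TUG1 (0.88), TUG1 and OIP5-AS1 (0.87) and NORAD and OIP5-AS1 (0.87), and lowest between MALAT1 and NORAD (0.29). MALAT1 and NEAT1, neighbours in the genome, stood at 0.55. Out of 4194 protein-coding genes of at least 10 FPKM, those most like MALAT1 over the 6 libraries were FUT11 and NEMP1 (r = 0.994 for both), and 219 had r above 0.9. For NEAT1 they were USP7 (0.97) and MAT2A (0.96), and 18 had r above 0.9. For TUG1 they were CPSF6 (0.997) and ARHGAP21 (0.996), for NORAD FUBP3 (0.97) and TXLNG (0.96), and for OIP5-AS1 PURB (0.998) and PM20D2 (0.993). The number above 0.9 was 169 for TUG1, 20 for NORAD and 44 for OIP5-AS1, so that NEAT1 and NORAD had the fewest close companions among these genes.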

How the data were processed

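The authors deposited a single table of normalised values without a unit in its header. It was identified as FPKM deposited by the authors, since value times GENCODE release 29 exon length gave whole multiples of 1 step per library for 98.1 to 98.6% of low values (up to 20 reads, tolerance 0.02). Fragments were recovered that way, and the implied library sizes were 0.864 to 1.10 times the fragment totals. The tools named, per the submitters' processing notes, are HISAT2, featureCounts 1.5.0 and DESeq2, on GRCh38 (hg38). How they were set, strand included, is not given in the sources used here. GENCODE release 29 matched 58275 identifiers and left 120 unmatched (0.0154% of summed FPKM).

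The 13155 genes averaging 1 FPKM or more were tested on log2(FPKM + 1), which understates changes of low genes, with limma 3.58.1 in R 4.3.3 (trend, robust prior), with Benjamini-Hochberg adjustment at 0.05 over all of them. Deviations of same-numbered libraries from their group means correlated at 0.67, 0.24 and 0.51. Replicate 1 libraries correlated at -0.63 to -0.43 with other-numbered libraries of the other fraction. A fit with the replicate number as block was run, and each of its calls rests on the pairs as numbered. CD20-positive 2 with CD20-negative 3 (0.40) and CD20-positive 3 with CD20-negative 2 (0.43) also correlated, so the order of replicates 2 and 3 is not settled by these values. Single values were compared by two-sided exact permutation tests. Alternatives were the pseudocount, filter, scaling, prior, block, voom on recovered fragments and each library left out. No list was tested as a set.

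The members and lists were chosen with earlier results of these data known. Named genes were the 7 RNAs, MS4A1, up to 3 genes per list with the smallest p without the block, and the 2 protein-coding genes most correlated with each detected RNA. RPP40, the further genes of the same lists, and those listed at 0 were named after their values were seen. Counting error was small for detected members (1888 to 38414 fragments). Sequences were read from GENCODE release 29 transcripts and the RefSeq miRNA table. Some items of the marker and partner lists are not reported here.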

Additional observations from a re-analysis of the deposited data

How the results depend on the processing

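Of 28 alternatives, the direction of MALAT1 (0.06 to 1.05) and NORAD (-0.87 to -0.20) was kept in all, and the nuclear minus cytoplasmic score ranged from 0.14 to 0.58 over its 9. Leaving out libraries gave log2 differences of 0.25 to 1.05 for MALAT1, -0.55 to 0.14 for NEAT1, -0.12 to 0.27 for TUG1, -0.49 to -0.20 for NORAD and -0.29 to 0.02 for OIP5-AS1. NEAT1 turned to 0.14 without the CD20-positive library of replicate 1 and to 0.077 without replicate 1, with and without the block, and OIP5-AS1 to 0.016 without the CD20-positive library of replicate 1. TUG1 turned to -0.47 when scaled to the FPKM total, with and without the block, and to -0.12, -0.09, -0.077 and -0.015 among 7 leave-out fits. Genes called numbered 1 in the fit without the block, 767 with the replicate block, 0 with no filter, 2 with a pseudocount of 10, 9 after quantile normalisation, 0 in voom and 1382 when scaled to the FPKM total (28 higher, 1354 lower). With the block they numbered 1491 in voom, 954 at 10 FPKM or more, 716 with a pseudocount of 0.1, 3923 when scaled to the FPKM total (90 higher, 3833 lower) and 942 when scaled without mitochondrial genes (684 higher, 258 lower). Leaving out libraries gave 0 to 2141 calls: 322 without the CD20-positive library of replicate 1, 1813 without replicate 1 (2141 with the block), and, with the block, 1 without replicate 2 and 331 without replicate 3. Of the long noncoding RNAs 0 were called, but 1 without replicate 1, in voom with the block and with the block at 10 FPKM or more, and 2 with the block scaled to the FPKM total. Of 109 tested genes in the partner and neighbour lists, 0 were called without the block. With it 8 were, where 5.83% of all genes were called. At 10 FPKM or more with the block it was 8 of 70, where 21.2% were. With the block and a pseudocount of 0.1 it was 8, beside 716 of all genes. Scaled to the FPKM total it was 12, beside 1382 of all genes, and 33 with the block, where 29.8% were called. It was 7 with the block scaled without mitochondrial genes, beside 942 of all genes. Voom with the block called 9, where 11.3% of all genes passed. With libraries left out it was 0 to 17. The 17 came without replicate 1, where 13.8% of all genes were called (16.3% with the block). The cause of these changes was not tested. The 5 detected RNAs had 1888 to 38414 fragments a library, while KCNQ1OT1, with 13 in all, could not be compared.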
